A study of Mus musculus with 32 samples.

Results

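Stc1, Tmem255a and Cdh6 are 3 genes that were chosen, out of 54446 in the count tables, because their levels fell strongly under low dose regorafenib in BNL-MEA tumours of the mouse liver. BNL-MEA is a mouse liver cancer cell line, and the cells were injected under the capsule of the left liver lobe of Balb/c mice. RNA of 32 whole tumours was sequenced in 3 experiments, each given as a batch in the labels. In the dose experiment, 4 tumours received vehicle, 3 received 5 mg/kg/day of regorafenib, called the low dose, and 3 received 20 mg/kg/day, called the high dose. In the DC-101 experiment, 4 tumours received vehicle, 3 the low dose and 3 DC-101. DC-101, which binds mouse VEGFR2, was injected intraperitoneally (800 μg, days 1, 3 and 5). In the experiment with anti-PD1, an antibody to a receptor that restrains T cells, there were 3 tumours each of vehicle, low dose, anti-PD1 and low dose plus anti-PD1 (the combination). All mice carried BNL-MEA tumours, and regorafenib, an oral inhibitor of VEGF receptors and other kinases, was given by gavage. Age and sex of the mice are not given in the sources used here. The genes were selected on their low dose values against vehicle in all 3 experiments. These values are therefore given as a description, with no test.

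Stanniocalcin 1, the product of Stc1, is a secreted glycoprotein that inhibits the PAPP-A proteases, which cut IGF binding proteins and so release insulin-like growth factors. Stc1 is expressed by endothelial cells and other stromal cells and rises in low oxygen in several cell types. Tmem255a encodes a membrane protein whose function is poorly known. Cdh6 encodes cadherin 6 (K-cadherin), a type II classical cadherin that holds cells together through catenins and is known from kidney epithelium and several carcinomas. VEGF signalling through VEGFR2 drives sprouting of tumour vessels, and Pecam1 (CD31) marks the endothelium that lines them, while Alb (albumin) marks hepatocytes.

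Stc1 (ENSMUSG00000014813.9) lies on chr14:69029238-69041804, plus strand, in GRCm38. Tmem255a (ENSMUSG00000036502.14) lies on chrX:38196573-38252439, minus strand. Cdh6 (ENSMUSG00000039385.5) lies on chr15:13028701-13173675, minus strand. All are protein coding. Exons of Stc1 shared 229 bases with the antisense gene Gm41192, and those of Tmem255a shared 474 bases with Zbtb33 on the other strand. The counting strand is not stated, so reads in these stretches may belong to either gene. RefSeq promoter sequence was matched for 2 of the 3 genes, Tmem255a and Cdh6. The 250 bases before each start are shown because both genes were chosen for lower levels under the low dose. Capitals mark motifs that were searched on both strands.
Cdh6 promoter, chr15:13173676-13173925, minus strand, GRCm38.p6: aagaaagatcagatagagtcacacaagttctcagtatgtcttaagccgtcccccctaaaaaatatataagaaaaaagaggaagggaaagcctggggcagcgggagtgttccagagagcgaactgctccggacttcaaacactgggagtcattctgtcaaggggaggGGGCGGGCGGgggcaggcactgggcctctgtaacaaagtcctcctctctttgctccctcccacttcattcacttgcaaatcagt
Tmem255a promoter, chrX:38252482-38252731, minus strand, GRCm38.p6: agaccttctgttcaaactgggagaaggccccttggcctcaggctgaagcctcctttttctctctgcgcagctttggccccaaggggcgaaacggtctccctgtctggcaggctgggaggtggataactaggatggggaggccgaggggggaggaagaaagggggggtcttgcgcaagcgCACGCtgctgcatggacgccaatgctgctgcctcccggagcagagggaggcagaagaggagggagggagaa
The capitals in the Cdh6 promoter are 2 overlapping GC boxes (GGGCGG), a motif held by 33% of 32536 promoter windows of that length. The capitals in the Tmem255a promoter are 1 hypoxia response core (ACGTG or GCGTG, here read on the other strand), which 38.8% of the windows held. The AP-1 site (TGANTCA, in 6.73% of windows), the ETS core (CCGGAA, 12.1%) and the TATA box (TATAAA, 12.3%) had no match in either window. GC content was 51.2% for Cdh6 and 62.4% for Tmem255a, against a median of 52.4%.

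Library totals were 16767130 to 27693689 counts, with 21417 to 24321 genes detected. The 3 genes were scarce: Stc1 had 8 to 241 counts, Tmem255a 3 to 446 and Cdh6 16 to 1789 over the 32 libraries, whereas Pecam1 had 318 to 3723. Alb ranged from 11 to 27900 CPM, the count scaled to a fixed TMM-adjusted library total, and differed widely also within groups. In the DC-101 experiment Alb was at 13.5 and 11 CPM in vehicle replicates 1 and 4 and at 23.1 CPM in DC-101 replicate 1, against 335 CPM or more in its other libraries. Each experiment was normalised on its own, so levels are set side by side across experiments only as a description. Bulk RNA cannot tell fewer cells of a type from less RNA per cell.

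Per kilobase of exon, vehicle tumours held more Stc1 than Tmem255a, by more than the spread in the dose and DC-101 experiments and by less than it in the anti-PD1 experiment. Mean levels in the vehicle groups (dose, DC-101 and anti-PD1 experiments, in that order) were 2.09 ± 0.855 (SD, n = 4), 1.46 ± 0.42 (n = 4) and 1.41 ± 0.807 RPKM (n = 3) for Stc1. They were 0.608 ± 0.239, 0.749 ± 0.615 and 0.799 ± 0.224 RPKM for Tmem255a. For Cdh6 they were 0.706 ± 0.129, 3.34 ± 3.82 and 0.589 ± 0.46 RPKM, and the spread in the DC-101 experiment came from vehicle replicate 4 at 8.91 RPKM. The vehicle levels of Tmem255a and Cdh6 differed by less than their spread in the dose and anti-PD1 experiments.

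**Figure D1:**
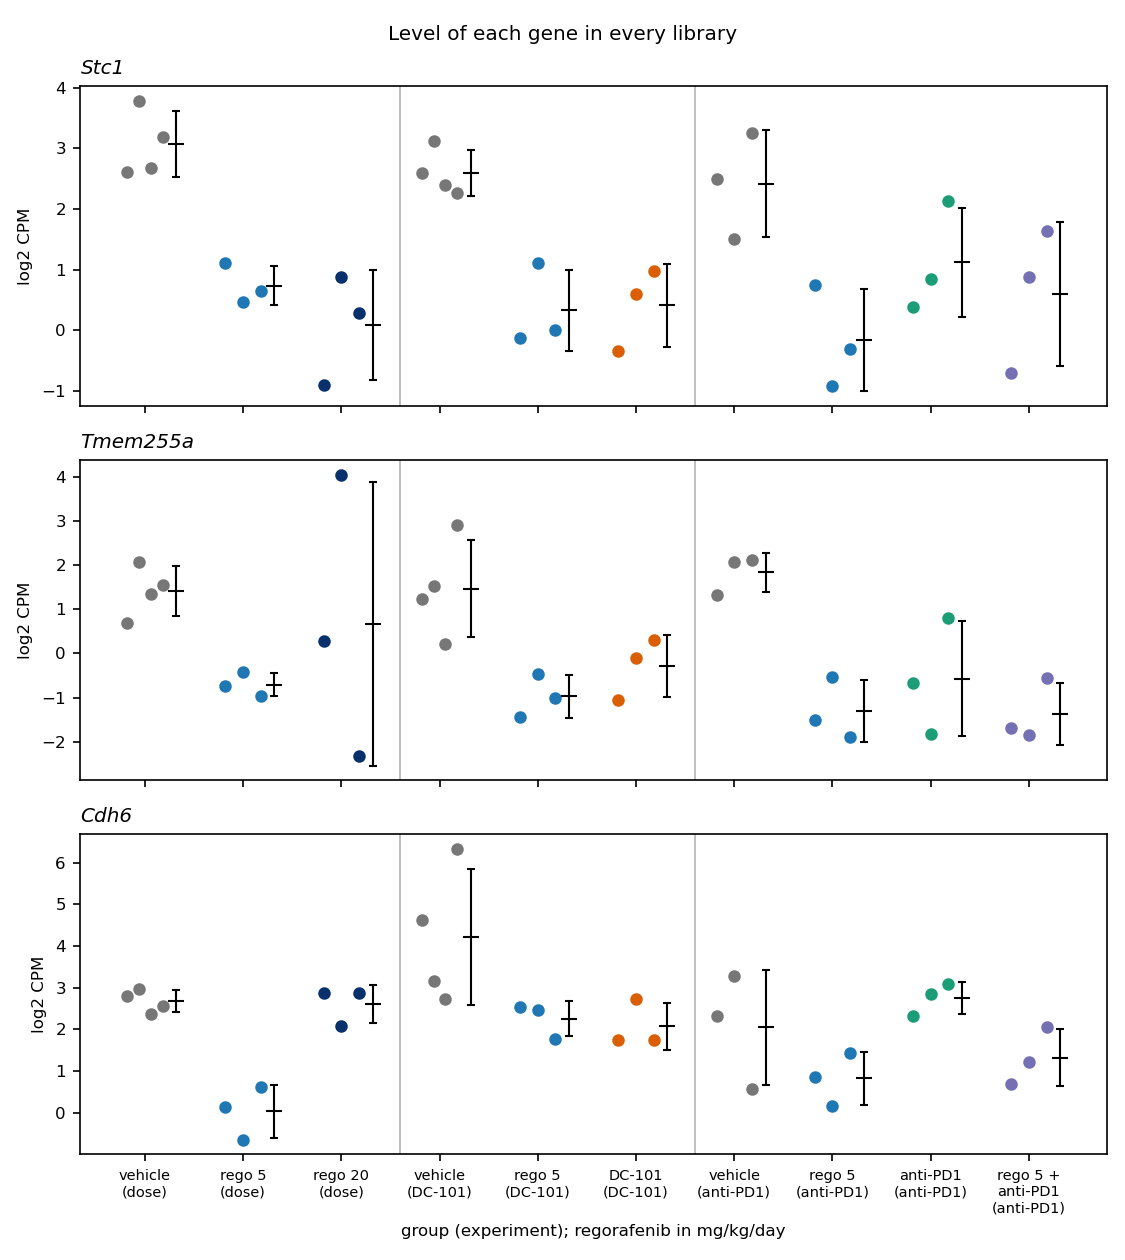
Log2 CPM (y axis) of Stc1, Tmem255a and Cdh6 in each of 32 libraries (points) by group and experiment (x axis); bars are mean ± SD, and rego 5 and rego 20 are regorafenib in mg/kg/day. Stc1 lay below every vehicle library of its experiment in the low dose, high dose and DC-101 groups and overlapped vehicle in the combination, high dose Tmem255a ran from -2.33 to 4.04, and Cdh6 at the high dose lay at the vehicle level.

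Under the low dose Stc1 was lower than in every vehicle library of the same experiment. In the dose experiment its level was 6.01, 13.8, 6.35 and 9.05 CPM in vehicle and 2.06, 1.29 and 1.49 CPM at the low dose. The DC-101 experiment gave 5.96, 8.66, 5.15 and 4.72 CPM in vehicle against 0.823, 2.05 and 0.913. The anti-PD1 experiment gave 5.56, 2.74 and 9.49 CPM against 1.58, 0.436 and 0.718. The groups did not overlap in any of the 3, and the fitted log2 changes were -2.44 (SE 0.49), -2.27 (SE 0.46) and -2.68 (SE 0.77).

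Tmem255a showed the same separation at lower levels. In the dose experiment it was at 1.52, 4.11, 2.46 and 2.82 CPM in vehicle and at 0.524, 0.663 and 0.432 CPM at the low dose. It was at 2.24, 2.78, 1.07 and 7.37 CPM in the DC-101 experiment's vehicle libraries and at 0.274, 0.637 and 0.4 CPM at its low dose. In the anti-PD1 experiment it was at 2.43, 4.11 and 4.23 CPM against 0.264, 0.599 and 0.18. No low dose library reached its vehicle range, and the log2 changes were -2.32 (SE 1.23), -2.93 (SE 0.71) and -3.38 (SE 0.77). The low dose values rest on 4 to 19 counts per library.

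Cdh6, the cadherin, separated from vehicle in 2 of the 3 experiments. The dose experiment had 6.91, 7.71, 5.1 and 5.76 CPM in vehicle and 1.01, 0.558 and 1.45 CPM at the low dose. In the DC-101 experiment vehicle held 24.7, 8.82, 6.56 and 80.4 CPM and the low dose 5.67, 5.46 and 3.31 CPM, so that the groups lay next to each other. In the anti-PD1 experiment vehicle replicate 3, at 1.38 CPM, lay within the low dose values of 1.73, 1.03 and 2.6, while the other vehicle libraries were at 4.9 and 9.64 CPM. The log2 changes were -2.66 (SE 0.39), -2.64 (SE 0.87) and -1.56 (SE 0.64), and without vehicle replicate 4 the second was -1.47. The third was -0.81 without vehicle replicate 2 and -2.01 without vehicle replicate 3.

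For these contrasts the background is given only as a reference, since they chose the genes. Over all genes tested, the low dose group lay wholly below vehicle for 6.99%, 9.48% and 7.36% (dose, DC-101 and anti-PD1 experiments, in that order), whereas 3, 3 and 2 of the 3 genes did. Genes past an adjusted p of 0.05 in the lower direction (edgeR quasi-likelihood test) made up 0%, 0.0124% and 0% of those tested. At an unadjusted p under 0.05 there were 418, 1543 and 1155 lower genes. Pecam1 changed in the same contrasts by -0.97 (SE 0.55), -1.55 (SE 0.35) and -0.99 (SE 0.35) on the log2 scale. Alb changed by 1.58 (SE 1.02), 2.31 (SE 2.04) and -2.16 (SE 0.71), without overlap in the last, and 17, 17 and 1 of 17 hepatocyte genes were above 0. Of 21 endothelial genes 19, 18 and 19 were below 0 (medians -0.95, -1.18 and -1.16, against 0, 0.01 and 0.03 over all genes). Of 10 tip and sprouting genes 8 were below 0 in each experiment (medians -0.64, -1.38 and -0.56). All 6 erythrocyte genes were below 0 in each experiment (medians -1.73, -2.19 and -2.77), and 9, 9 and 8 of 9 T cell genes above 0 (medians 0.9, 0.58 and 0.59). In the anti-PD1 experiment all 5 mesothelial and 6 liver sinusoid genes were below 0 (medians -3.09 and -2.58), and in the dose experiment all 11 macrophage genes were above 0 (median 0.73). The part of these cell types in the values of the 3 genes was not tested. With the hepatocyte score as a covariate Cdh6 was at -2.74 (SE 0.39), -1.17 (SE 1.05) and -2.33 (SE 0.81). With the score of 21 endothelial genes as a covariate, Tmem255a was at 0.02 (SE 0.64), -1.03 (SE 0.67) and -3.37 (SE 1.52) in the same order, and Cdh6 at -2.83 (SE 0.43), -0.53 (SE 1.19) and 1.1 (SE 1.29). With the same covariate Stc1 stayed between -2.61 and -2 in the 3 experiments.

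The high dose asked whether the same genes were low at 20 mg/kg/day, and they were not low together: Stc1 fell, Cdh6 was at the vehicle level and Tmem255a was scattered. This contrast and the next ones share their vehicle libraries with the low dose contrast that chose the genes, except for the combination against anti-PD1. Stc1 was at 0.453, 1.76 and 1.14 CPM in the 3 high dose libraries, all below the lowest vehicle library at 6.01. Its log2 change was -2.95 (SE 0.51, adjusted p = 0.0234, edgeR quasi-likelihood test, 2-sided), with a 95% interval from -4.1 to -1.81. In this comparison 6.82% of 16525 genes passed as lower and 8.8% as higher, 16.6% had a high dose group wholly below vehicle, and of the 3 genes 1 passed as lower, none as higher and 1 lay wholly below vehicle, Stc1 in both cases. The total called depended on single libraries: 2582 genes passed in either direction, but 38, 83, 15 and 26 without vehicle replicates 1 to 4, and 956, 537 and 7030 without high dose replicates 1 to 3. The size of the Stc1 change held when any 1 library was left out, between -3.41 and -2.58. Its adjusted p did not: it was 0.0614, 0.0612, 0.0596 and 0.0669 without vehicle replicates 1, 2, 3 and 4 and 0.0734 with only the 2 groups compared in the fit. With a replicate block the change was -2.96 with an adjusted p of 0.192.

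Tmem255a at the high dose differed by library more than by group. It was at 1.13, 16.3 and 0.118 CPM in replicates 1, 2 and 3, from 20, 446 and 3 counts, against 1.52 to 4.11 CPM in vehicle. Replicate 2 was thus above every vehicle library and the other two were below. The fitted log2 change was 1.11 (SE 1.09, adjusted p = 0.467, edgeR), with a 95% interval from -1.35 to 3.57, whereas the mean log2 CPM was lower at the high dose (0.66 ± 3.2, n = 3) than in vehicle (1.41 ± 0.57, n = 4). Without replicate 2 the change was -2.14 (adjusted p = 0.101). In that library Pecam1 was also high, at 136 CPM against 34.7 and 20.6 in the other high dose libraries, and the scores of the endothelial, mural and mesothelial lists were 5.09, 5.56 and 5.6 against 4.2 and 3.1, 4.48 and 3.75, and 2.91 and 2.89. With the endothelial score as a covariate the Tmem255a change was 0.21 (SE 0.62).

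Cdh6 at the high dose was at 7.3, 4.18 and 7.21 CPM. Replicates 1 and 3 lay within the 5.1 to 7.71 CPM of vehicle and replicate 2 below it. The log2 change was -0.03 (SE 0.35, adjusted p = 0.953, edgeR), with a 95% interval from -0.81 to 0.75. Its sign depended on the setting, being 0 or above with RLE scaling, with DESeq2 and without high dose replicate 2 (0.2). As a description, the high dose exceeded the low dose by 2.62 (SE 0.4) for Cdh6, and the 3 high dose libraries lay above the 3 low dose libraries, a pattern that 11.6% of all genes shared. The same difference was 3.43 (SE 1.31) for Tmem255a, with overlapping groups, and -0.51 (SE 0.5) for Stc1, also with overlap. For Tmem255a, high dose replicates 1 and 2 (1.13 and 16.3 CPM) lay above every low dose library and replicate 3 (0.118 CPM) below. Its mean log2 CPM was 0.66 at the high dose and -0.71 at the low dose. Relative to Pecam1 in the same library, Stc1 lay at -5.44 ± 1.18 on the log2 scale at the high dose, -4.34 ± 0.39 at the low dose and -2.95 ± 0.36 in vehicle. In the same order Tmem255a lay at -4.87 ± 1.83, -5.78 ± 0.33 and -4.61 ± 0.33, and Cdh6 at -2.92 ± 1.84, -5.04 ± 0.6 and -3.34 ± 0.44. In the DC-101 experiment the low dose and vehicle ranges of this measure overlapped for each gene, with Cdh6 at -2.71 ± 0.36 against -2.21 ± 1.05. In the anti-PD1 experiment they overlapped for Stc1 (-4.84 ± 0.36 against -3.21 ± 1.5) and Cdh6 (-3.86 ± 0.5 against -3.58 ± 0.87). For Tmem255a they did not overlap there (-5.99 ± 1.15 against -3.79 ± 0.67). Markers of other cell types moved with the high dose, where 6.82% of all genes were called lower and 8.8% higher. Alb was at 3.07 (SE 1.06, adjusted p = 0.0671), and all 17 hepatocyte genes were above 0 with 1 called. The hepatocyte score ran from 6.99 to 12.13 at the high dose and from 5.12 to 8.16 in vehicle. Of 5 mesothelial genes 4 were called higher (score 2.89 to 5.6 against 0.89 to 1.73), and of 11 macrophage genes 10 were called lower (5.28 to 6.56 against 7.18 to 7.87). Of 9 T cell genes 5 were called higher (1.26 to 2.7 against 0.14 to 1.07), of 6 epithelial genes 2 were called higher (4.37 to 5.69 against 2.53 to 3.33), and of 10 proliferation genes 3 were called lower (4.34 to 6.52 against 7.01 to 7.33). Of 9 fibroblast genes 2 were called higher (8.11 to 9.7 against 8.07 to 8.37), of 10 mural genes 1 higher (3.75 to 5.56 against 3.85 to 4.57), of 6 erythrocyte genes 1 lower (2.14 to 3.68 against 3.13 to 5.3) and of 3 platelet genes 1 lower (1.33 to 2.23 against 1.53 to 2.09). High dose replicate 1 stood apart, with 5.37% of its counts from mitochondrial genes against 1.84% to 2.31% in vehicle and a TMM factor of 0.678. Without it the Stc1 change was -2.58 (adjusted p = 0.0229, edgeR). The part of these cell types in the changes of the 3 genes was not tested. With the hepatocyte score as a covariate, which itself reached higher at the high dose, the Stc1 change was -2.86 (adjusted p = 0.0472, edgeR). Only the hepatocyte and endothelial scores were used as covariates.

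**Figure D2:**
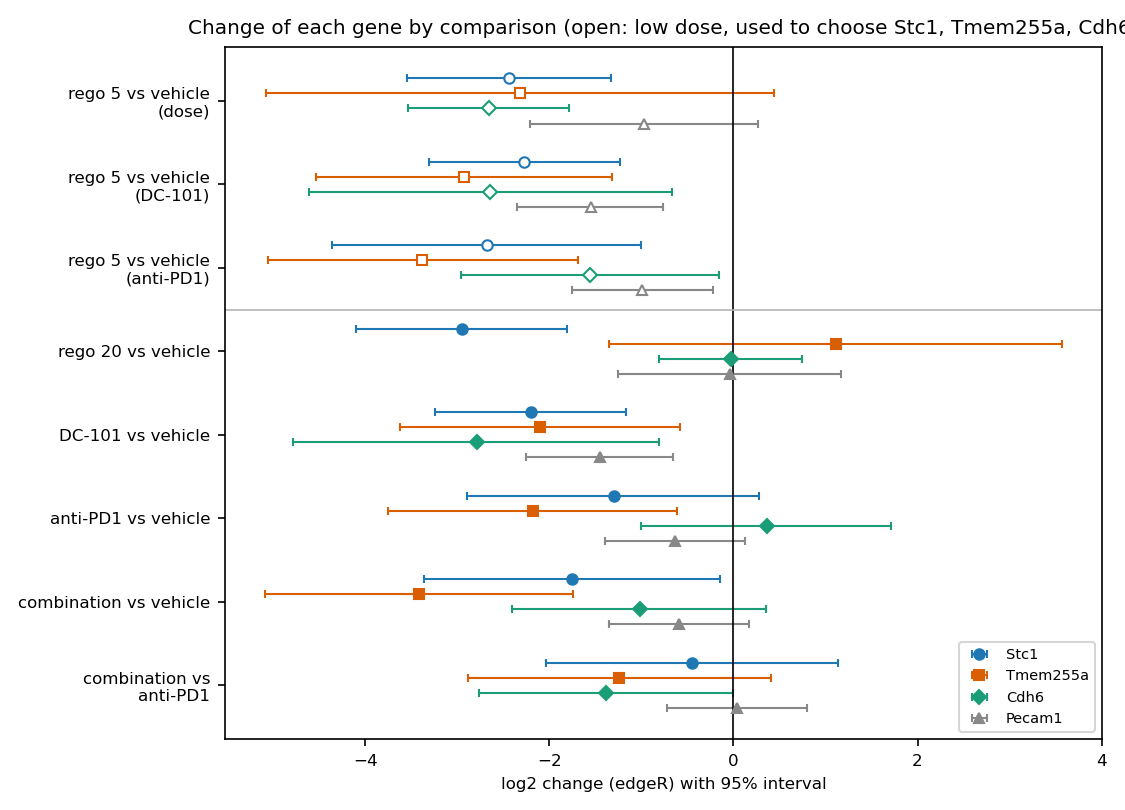
Log2 change fitted by edgeR (x axis, with 95% interval) of Stc1, Tmem255a, Cdh6 and Pecam1 in 8 comparisons (y axis); rego 5 and rego 20 are regorafenib in mg/kg/day, and open symbols are the low dose, which was used to choose the 3 genes. Stc1 was below 0 throughout, while Cdh6 was at -0.03 for the high dose and 0.36 for anti-PD1.

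The relatives of these genes were described from lists of each family. The high dose calls in all lists come from the main fit alone. The total called there, 2582 genes, was 15 to 7030 without 1 library, and whether each list call held was not examined. Of the stanniocalcin and PAPP-A list, 5 of 6 genes were tested at the high dose, with 1 called lower (Stc1) and 1 higher, against 6.82% of all genes called lower and 8.8% called higher in this comparison. The higher gene was Igfbp4, an IGF binding protein that PAPP-A cuts, at 1.59 (SE 0.29, adjusted p = 0.0265). Stc2, the paralog of Stc1, was at 1.37 (SE 0.48, adjusted p = 0.0678), opposite in sign to Stc1, and Pappa at 0.66 and Igfbp5 at 3.79 did not pass. The list's median was 1.37, against 0.02 over all genes tested. Stc2 was scarce, with 18 to 49 counts in vehicle and 42 to 126 at the high dose.

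Of 13 type II classical cadherins, 5 were tested at the high dose, with 1 called lower and none higher, and a median of -0.41. The calls in this and the other cadherin and catenin lists stand beside the same 6.82% lower and 8.8% higher over all genes. Cdh22 was the one called, at -2.37 (SE 0.67, adjusted p = 0.0471). Cdh5 (VE-cadherin, the cadherin of endothelial junctions) was at -1.31 (SE 0.4, adjusted p = 0.0526). Cdh11, a cadherin of mesenchymal cells, was at 2.96 (adjusted p = 0.0505) and Cdh24 at -0.41. Among 5 type I cadherins Cdh15 was called lower (-3.6, adjusted p = 0.0347) and Cdh1 (E-cadherin) higher (1.87, adjusted p = 0.0432), and among 4 catenins Jup (plakoglobin) was called lower (-0.87, adjusted p = 0.0399). Tmem255b, the paralog of Tmem255a, had at most 30 counts in vehicle and 76 at the high dose, and was tested in the dose experiment alone, at 1.5 for the high dose.

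The vessel and oxygen lists at the high dose are also read beside 6.82% of all genes called lower and 8.8% called higher. Of 10 tip and sprouting genes 3 were called lower and none higher, with a median of -0.77: Kcne3 was at -4.08, Esm1 at -3.13 and Dll4, a Notch ligand of tip cells, at -2.12. Of 21 endothelial genes 3 were lower and none higher, with a median of -0.09. Of 18 hypoxia genes 5 were higher and none lower, with a median of 0.56, led by Adm at 2.33, Egln3 at 1.67 and Higd1a at 1.05. Stc1 fell in the same group, and the part of these lists in its change was not tested. Of the VEGF list Vegfa was higher (1.12, adjusted p = 0.0187) and Flt1, which encodes VEGFR1, lower (-1.71, adjusted p = 0.0418).

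DC-101 blocks VEGFR2 alone, and in its tumours the fitted change of each of the 3 genes was below 0. None passed the adjusted threshold with edgeR, which called 0 of 16138 genes. Of the 3, 2 passed it with DESeq2 (Stc1 and Cdh6), which called 373 genes in either direction. Stc1 was at 0.691, 1.42 and 1.88 CPM under DC-101 and at 4.72 to 8.66 CPM in vehicle, so the groups did not overlap. The log2 change was -2.2 (SE 0.46, unadjusted p = 0.000916, adjusted p = 0.309, edgeR). DESeq2 gave an adjusted p of 0.00144 at the same size. With the endothelial score as a covariate the change was -2.03 (SE 0.58).

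Tmem255a was at 0.389, 0.84 and 1.13 CPM under DC-101, overlapping the lowest vehicle library at 1.07, with a change of -2.1 (SE 0.68, adjusted p = 0.325, edgeR) that was -1.37 without vehicle replicate 4. The endothelial score as a covariate left -0.62 (SE 0.6). Cdh6 was at 3.24, 6.5 and 3.28 CPM, just below the lowest vehicle library at 6.56. Its change was -2.79 (SE 0.88, adjusted p = 0.325, edgeR, and 0.0161 with DESeq2), and -1.62 without vehicle replicate 4, which held 80.4 CPM of Cdh6 and 155 CPM of Pecam1. The endothelial covariate left -0.9 (SE 1.16) and the hepatocyte covariate -1.26 (SE 1.13). Pecam1 itself was at -1.45 (SE 0.35, adjusted p = 0.309, edgeR) and Alb at 3.25 (SE 2.1). All 17 hepatocyte genes were above 0 (median 3.36, score 1.83 to 10.14 against 0.18 to 7.24 in vehicle). All 10 tip and sprouting, 10 mural and 6 erythrocyte genes were below 0 (medians -1.3, -0.76 and -1.75). None of these was called, and their part in the values of the 3 genes was not tested.

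Over all genes, edgeR called 0 of 16138 in the DC-101 comparison (0% lower), with 2131 at an unadjusted p under 0.05, and DESeq2 called 373. The DC-101 group lay wholly below vehicle for 8.19% of genes, and for 2 of the 3 genes. Of the stanniocalcin list 5 of 5 tested genes, Stc1 among them, were below 0, with a median of -0.58. Of the type II cadherins 4 of 5, Cdh6 among them, were below 0, with a median of -1.56 and Cdh5 at -1.56. Stc1 and Cdh6, chosen in part on these vehicle libraries, held the lowest value of their lists. Over all genes 8262 of 16138 were below 0, with a median of -0.01. As a description, DC-101 and the low dose of the same experiment differed by 0.07 (SE 0.47) for Stc1, 0.83 (SE 0.72) for Tmem255a and -0.15 (SE 0.86) for Cdh6, with overlapping groups for each. The 95% intervals of these differences were -0.99 to 1.12, -0.8 to 2.46 and -2.09 to 1.79, wide enough to hold differences of more than 1 log2 unit.

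Anti-PD1, which acts on T cells, left the 3 genes at different levels. Tmem255a was at 0.534, 0.194 and 1.64 CPM, below every vehicle library (2.43 to 4.23), with a log2 change of -2.18 (SE 0.72, adjusted p = 0.256, edgeR), and -3.28 without anti-PD1 replicate 3. Stc1 was at 1.21, 1.7 and 4.29 CPM against 2.74 to 9.49, with overlap and a change of -1.3 (SE 0.72, adjusted p = 0.455), which was -0.79 without vehicle replicate 3 and -2.02 without anti-PD1 replicate 3. Cdh6 was at 4.9, 7.12 and 8.34 CPM, inside the wider vehicle range (1.38 to 9.64), with a change of 0.36 (SE 0.62, adjusted p = 0.843) that was -0.1 without vehicle replicate 3, 2.03 (SE 0.91) with the endothelial covariate and -0.46 (SE 0.81) with the hepatocyte covariate. No gene passed here (0% of 16615 lower), with 2269 at an unadjusted p under 0.05 and 614 called by DESeq2. The anti-PD1 group lay wholly below vehicle for 9.2% of genes, and for 1 of the 3. Alb was at -2.82 on the log2 scale (SE 0.73) in the same libraries. All 17 hepatocyte, 5 mesothelial, 6 liver sinusoid, 7 neutrophil and 6 erythrocyte genes were below 0 (medians -2.2, -3.86, -2.05, -1.46 and -2.54), as were 19 of 21 endothelial genes (median -0.63). The mesothelial score ran from -0.43 to 1.85 under anti-PD1 and from 2.37 to 5.62 in vehicle. No gene of these lists was called, and their part in the values of the 3 genes was not tested.

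In the combination group Tmem255a was below every vehicle library, at 0.218, 0.189 and 0.591 CPM. Against vehicle its log2 change was -3.41 (SE 0.76, unadjusted p = 0.000882, adjusted p = 0.449, edgeR), and DESeq2 gave an adjusted p of 0.00379. Stc1 was at 0.522, 1.74 and 3 CPM, overlapping vehicle, with a change of -1.75 (SE 0.73, adjusted p = 0.572). Cdh6 was at 1.52, 2.23 and 4.05 CPM, also with overlap, with a change of -1.02 (SE 0.63, adjusted p = 0.679) that became 0.73 (SE 0.94) with the endothelial covariate and ran from -1.49 to -0.27 without 1 library, the last without vehicle replicate 2. Pecam1 was at -0.59 (SE 0.35) and Alb at -0.99 (SE 0.69), without overlap for Alb. All 9 T cell genes were above 0 (median 1.12), and all 5 mesothelial, all 6 erythrocyte and 18 of 21 endothelial genes below 0 (medians -2.1, -2.41 and -0.76), with none called. Their part in the values of the 3 genes was not tested. The combination lay wholly below vehicle for 8.12% of genes, and for 1 of the 3. edgeR called 0 of 16615 genes (0% lower), with 1362 at an unadjusted p under 0.05, and DESeq2 called 150.

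The combination against anti-PD1 added the low dose to the antibody, and neither group held a library that chose the genes. The vehicle and low dose libraries of that experiment entered the fit through its shared estimate of the spread, and with only these groups fitted the adjusted p was 0.725 for Stc1, 0.386 for Tmem255a and 0.124 for Cdh6 (edgeR). Cdh6 was lower in each of the 3 combination libraries than in any of the 3 anti-PD1 libraries. The mitochondrial share also separated these libraries, at 2.34%, 1.43% and 1.36% in the combination and 0.68%, 0.518% and 0.37% under anti-PD1, and its part was not tested. The Cdh6 change was -1.38 (SE 0.63, unadjusted p = 0.05, adjusted p = 0.576, edgeR), with a 95% interval from -2.76 to 0. Tmem255a changed by -1.24 (SE 0.75, adjusted p = 0.695) and Stc1 by -0.45 (SE 0.72, adjusted p = 0.873), both with overlap, and without anti-PD1 replicate 3 they were at -0.13 and 0.27. The 95% intervals, -2.88 to 0.41 and -2.04 to 1.14, both held 0. Pecam1 was at 0.04 (SE 0.35) and Alb at 1.84 (SE 0.71, adjusted p = 0.495), with Alb higher in every combination library. All 17 hepatocyte genes (median 2.35) and all 9 T cell genes (median 1.81) were above 0 with none called, and their part in these values was not tested. With the hepatocyte score as a covariate Cdh6 was at -0.81 (SE 0.73). A group wholly below anti-PD1 was seen for 14.3% of all genes, and for 1 of the 3. No gene passed (0% lower of 16615, edgeR), with 1443 at an unadjusted p under 0.05 and 210 called by DESeq2.

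The likely cell source was examined inside groups, where mean differences between treatments do not enter: each library's log2 CPM was taken as its deviation from the mean of its group, and 9 relations were tested over 32 libraries by 100000 permutations within groups. A response that differs between the libraries of a treated group still enters. For Tmem255a and Pecam1, Pearson's r was 0.78 (permutation p = 0.00264, adjusted p = 0.0238) and Spearman's rho 0.56 (permutation p = 0.0078, adjusted p = 0.0702). Within each experiment (dose, DC-101 and anti-PD1, in that order) r was 0.97, 0.92 and 0.05, so the relation was not seen in the anti-PD1 experiment. Leaving out 1 library ended the call in 4 of 32 cases: the adjusted permutation p was 0.0909 without high dose replicate 1 or 3, 0.0948 without vehicle replicate 4 and 0.0518 without DC-101 replicate 1 of the DC-101 experiment. Without the 2 libraries whose Pecam1 deviated most, high dose replicates 2 and 3, the remaining high dose library had no partner and dropped out (n = 29), and r was 0.50 (permutation p = 0.0204, adjusted p = 0.092).

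Cdh6 and Pecam1 gave an r of 0.36 (permutation p = 0.0975, adjusted p = 0.439) and a rho of 0.40 (permutation p = 0.0653, adjusted p = 0.216). The experiments differed, at -0.47, 0.77 and 0.75, and without high dose replicates 2 and 3 r was 0.70 (permutation p = 0.00388, adjusted p = 0.0349). Without high dose replicate 2 alone, which held 136 CPM of Pecam1 and 4.18 CPM of Cdh6, r was 0.67 (adjusted permutation p = 0.0344). Stc1 and Pecam1 gave an r of 0.25 (permutation p = 0.32, adjusted p = 0.576) and a rho of 0.29 (permutation p = 0.184, adjusted p = 0.413), at 0.52, 0.26 and 0.03 within experiments.

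None of the 3 genes followed Alb. The r was 0.09 for Stc1 (permutation p = 0.645), 0.06 for Tmem255a (permutation p = 0.776) and -0.32 for Cdh6 (permutation p = 0.245), with rho at 0.04, 0.08 and -0.21 and no adjusted p below 0.551. The 3 genes were also not shown to move together within groups. The r was 0.34 for Stc1 with Tmem255a (permutation p = 0.163), -0.04 for Stc1 with Cdh6 (permutation p = 0.852) and 0.09 for Tmem255a with Cdh6 (permutation p = 0.623), with rho at 0.40, 0.06 and 0.05.

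**Figure D3:**
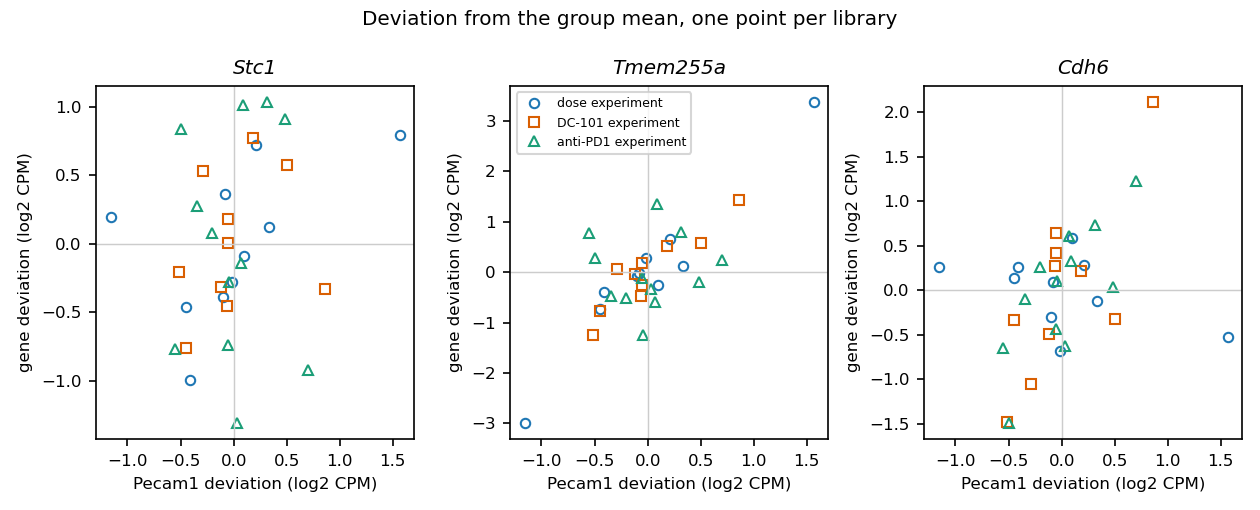
Deviation of each gene from its group mean (y axis, log2 CPM) against that of Pecam1 (x axis, log2 CPM), 1 point per library, by experiment, for Stc1, Tmem255a and Cdh6. The r with Pecam1 was 0.25 for Stc1, 0.78 for Tmem255a and 0.36 for Cdh6, and the library at the far right of each panel is high dose replicate 2.

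Over 60 relations of the 3 genes with 20 list scores, 9 passed by r and 7 by both r and rho at an adjusted p under 0.05. The 9 were 7 for Stc1, 2 for Tmem255a and 0 for Cdh6. Without the 2 libraries whose list score deviated most, 3 of the 9 still passed, those of Stc1 with the type II cadherins, the mesothelial markers and the tip and sprouting genes (adjusted permutation p = 0.0174, 0.0204 and 0.0244). The adjusted permutation p was then 0.0738 for Stc1 with the hypoxia, fibroblast and stanniocalcin lists, and 0.18 for Stc1 with the VEGF list and for Tmem255a with the endothelial and mural lists. Stc1 went with the score of the 5 tested type II cadherins, Cdh6 included (r 0.81, rho 0.82, permutation p = 2e-05, adjusted p = 0.0012), the mesothelial markers (r 0.78, rho 0.77, adjusted permutation p = 0.0024), the tip and sprouting genes (r 0.73, rho 0.69, adjusted permutation p = 0.0046) and the hypoxia genes (r 0.70, rho 0.69, adjusted permutation p = 0.0051). It also went with the fibroblast markers (r 0.66, rho 0.69), the stanniocalcin and PAPP-A list without itself (r 0.65, rho 0.68) and the VEGF list (r 0.59, rho 0.57), at adjusted permutation p-values of 0.011, 0.011 and 0.0338. With the endothelial markers as a whole the r of Stc1 was 0.13 (rho 0.10, permutation p = 0.593).

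Within each experiment (dose, DC-101 and anti-PD1, in that order) the r of Stc1 was 0.80, 0.83 and 0.84 for the type II cadherins, 0.48, 0.91 and 0.87 for the mesothelial markers and 0.63, 0.63 and 0.87 for the tip and sprouting genes. It was 0.33, 0.73 and 0.79 for the hypoxia genes, 0.61, 0.71 and 0.72 for the fibroblast markers, 0.48, 0.89 and 0.64 for the stanniocalcin list and 0.25, 0.47 and 0.72 for the VEGF list. Every one of these values was positive. Tmem255a went with the endothelial markers (r 0.73, adjusted permutation p = 0.0403, rho 0.49, adjusted p = 0.122) and the mural markers of pericytes and smooth muscle (r 0.57, adjusted permutation p = 0.0447, rho 0.47, adjusted p = 0.126). By rho alone it went with the tip and sprouting genes (rho 0.60, adjusted permutation p = 0.0398, r 0.57, adjusted p = 0.104). Within experiments these were 0.89, 0.80 and 0.03 for the endothelial and 0.84, 0.60 and 0.16 for the mural markers.

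**Figure D4:**
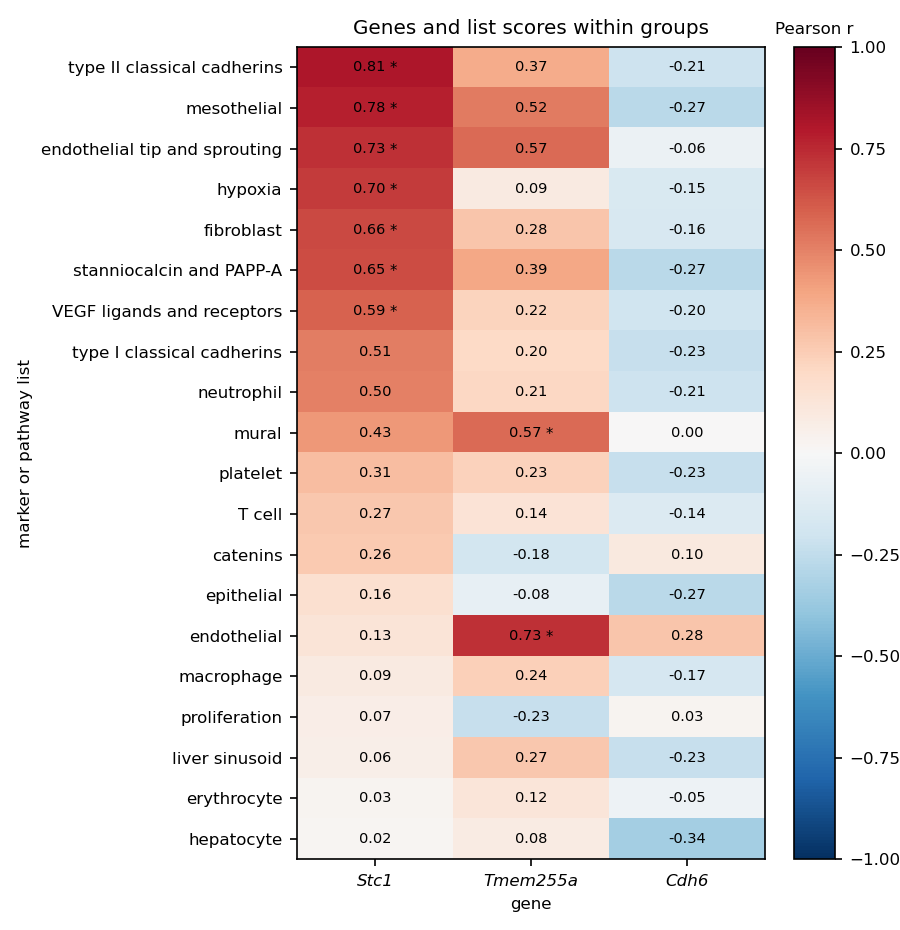
Pearson r (colour and number) between the within-group deviations of each gene (x axis) and of the score of each list (y axis) over 32 libraries; a star marks an adjusted permutation p under 0.05 over 60 relations. Stc1 has 7 starred lists, Tmem255a has 2 and Cdh6 none.

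The genes with the most similar pattern were taken over 32 libraries among 12757 protein-coding genes, as a description. With values centred on the experiment, so that treatment enters, Stc1 was most like Flt1 (r 0.87), Trp53i11 (0.87), Inhbb (0.87), Dll4 (0.85) and Stk24 (0.83). Tmem255a was most like Fabp4 (0.89), Esam (0.88), Ldb2 (0.85), Egfl7 (0.83) and Pecam1 (0.83). Esam encodes an adhesion molecule of endothelial junctions and Egfl7 a protein secreted by endothelium. Cdh6 was most like Mtcl1 (0.78), Igfbp3 (0.69), Kcnq1 (0.67), Tspan8 (0.66) and Sox17 (0.65), with Pecam1 at rank 9 (0.62).

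With values centred on the group, so that mean differences between treatments do not enter, the genes most like Stc1 were Gpr132 (0.82), Atp7a (0.81), Dact1 (0.80), Cyp26b1 (0.79) and Fndc1 (0.78), and Pecam1 was at rank 4293. For Tmem255a they were Esam (0.84), Fabp4 (0.83), Rapgef5 (0.79), Zfp521 (0.78) and Pecam1 (0.78). For Cdh6 they were Lhx1 (0.75), Mios (0.69), Tfdp2 (0.68), Ehbp1 (0.67) and Epc2 (0.67), with Pecam1 at rank 693. Alb was at ranks 6078, 5226 and 11737 for Stc1, Tmem255a and Cdh6.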

How the data were processed

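Tumour RNA was made into stranded mRNA libraries and sequenced as read pairs. The tissue was frozen per the labels and fresh per the study's methods. The authors trimmed reads with cutadapt 2.4, aligned them to GRCm38 with STAR 2.7.2a and deposited raw read counts per Gencode gene. The strand column taken is not given in the sources used here. Of 54446 identifiers 54409 (99.93%) were matched to symbols and exonic lengths. Groups came from the sample labels. Whether replicates are separate mice is not stated there, so p-values measure the spread between these samples.

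Each experiment was fitted with all its groups in edgeR 4.0.16 (R 4.3.3): filterByExpr (minimum count 10, total 15), TMM scaling, robust quasi-likelihood test, Benjamini-Hochberg adjustment over all genes, threshold 0.05. Of 3 genes, 3 passed the filter in every experiment. Log2 CPM used a prior count of 2. List scores are mean log2 CPM. Libraries of a group differed by more than counting noise (chi-square per degree of freedom 12.9 to 834.2 over 36 pairs). Same-numbered replicates correlated above 0.1 in 2 of 9, 4 of 9 and 6 of 18 pairs (dose, DC-101 and anti-PD1, in that order), so they were not treated as pairs. These r values ran from -0.722 to 0.555, -0.459 to 0.669 and -0.284 to 0.616. The pairs of replicate 3 in the DC-101 experiment were at 0.452, 0.669 and 0.626, so shared handling of some same-numbered samples was not excluded. Alternatives were other scalings, filters and tests (DESeq2 1.42.0, voom of limma 3.58.1), covariates, a replicate block and leaving out libraries. The code was tested on simulated data. The genes and lists were chosen with earlier results of these data known, and named genes are the 3, their families, the largest called changes of a list (up to 3) and the 5 most similar genes. Intervals cover 95%.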

Additional observations from a re-analysis of the deposited data

How the results depend on the processing

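The Stc1 change at the high dose kept its direction throughout but passed the adjusted threshold only in part: with a replicate block it was -2.96, with only the groups compared -2.95, and without 1 library -3.41 to -2.58. At the high dose Tmem255a turned with voom (-0.84), with the replicate block (-0.11) and without 1 library (-2.14 to 1.68), and Cdh6 was at 0 with RLE scaling, with at least 10 counts in every library and with DESeq2, and at -0.21 to 0.2 without 1 library. DESeq2 put Stc1 (-2.19) and Cdh6 (-2.79) under DC-101 and Tmem255a in the combination (-3.44) past the threshold. Cdh6 under anti-PD1 was at -0.46 with the hepatocyte score and at -0.1 to 1.11 without 1 library, and in the combination at 0.73 with the endothelial score. Stc1 in the combination against anti-PD1 ranged from -1.07 to 0.27 without 1 library. For the low dose the endothelial score moved Tmem255a to 0.02 in the dose and -1.03 in the DC-101 experiment and Cdh6 to -0.53 in the DC-101 and 1.1 in the anti-PD1 experiment. Cdh6 in the DC-101 experiment was at -1.37 with the replicate block and -1.17 with the hepatocyte score, and Tmem255a in the anti-PD1 experiment at -3.97 to -3.06 without 1 library. The block changed no other call of the 3 genes, and its numbers were not shown to pair samples. The cause of these shifts was not tested.

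Genes past the threshold at the high dose numbered 282 with total count scaling, 416 without a filter, 5275 with DESeq2, 1349 with voom, 1 with the replicate block, 4430 with the endothelial and 203 with the hepatocyte score, 4 with only the groups compared and 15 to 7030 without 1 library. DESeq2 called 373 genes for DC-101, 614 for anti-PD1, 150 for the combination and 210 for the combination against anti-PD1, and the combination had 1 without a filter and 7 with the hepatocyte score.

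Within groups, r without the 2 farthest libraries was -0.08 for Stc1 with Alb, 0.50 for Tmem255a and 0.70 for Cdh6 with Pecam1, 0.26 for Stc1 with Cdh6 and -0.09 for Tmem255a with Cdh6. In the dose experiment alone r was -0.27 for Stc1 with Alb, 0.97 for Tmem255a and -0.47 for Cdh6 with Pecam1, 0.37 for Cdh6 with Alb and -0.52 for Tmem255a with Cdh6. It was -0.19 for Tmem255a with Alb in the DC-101 experiment, and 0.05 for Tmem255a with Pecam1 and 0.04 for Stc1 with Cdh6 in the anti-PD1 experiment. Without 1 library r was -0.11 to 0.18 for Stc1 and -0.11 to 0.21 for Tmem255a with Alb, 0.55 to 0.86 for Tmem255a and 0.19 to 0.67 for Cdh6 with Pecam1, -0.14 to 0.11 for Stc1 with Cdh6 and -0.11 to 0.31 for Tmem255a with Cdh6. List relations without the 2 farthest libraries, an alternative chosen after seeing the data, no longer passed for Stc1 with the stanniocalcin (0.58), VEGF (0.49), hypoxia (0.61) and fibroblast (0.60) lists and for Tmem255a with the endothelial (0.46) and mural (0.59) lists. Tmem255a rested on as few as 3 counts in a library.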
